A study of Mus musculus with 2 samples.

Results

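The TGF-β pathway of cultured Th17 cells was described through 10 genes: the ligand gene Tgfb1, the receptor genes Tgfbr1 and Tgfbr2, the signalling Smad genes Smad2, Smad3 and Smad4, and the inhibitory genes Smad7, Ski, Skil and Pmepa1. They were chosen by symbol, and all 10 were found among the 17002 genes of the authors' deposited table. The cells were Th17 cells (IL-17-producing helper T cells) grown for 3 days from naive splenic CD4+ T cells of C57BL/6 mice. Wild-type mice gave 1 library, and mice without lncRNA-GM, a long non-coding RNA (genotype lncRNA-GM-/-), gave 1 library, labelled ko8. The title of the series links this RNA to Th17 differentiation and to Foxo1 activity. Whether cells of several animals were pooled is not given in the sources used here, and the RNA of the deleted gene was not analysed here. With 1 library per genotype there is no spread between replicates, so the comparisons below carry no test and describe only the 2 libraries.

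TGF-β is secreted in a latent form and, once released, binds the type II receptor, which recruits and phosphorylates the type I receptor. The active type I receptor phosphorylates Smad2 and Smad3, which enter the nucleus with Smad4 and act on target genes. Smad7, Ski, SnoN (the product of Skil) and Pmepa1 restrain the signal, and several of them are themselves induced by it. In naive CD4+ T cells TGF-β together with IL-6 starts the Th17 programme, whereas TGF-β without IL-6 favours Foxp3 and regulatory T cells.

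The RNA of the 10 genes was close to equal in the 2 libraries. None of them was 1.5-fold apart, where 7.90% of the 10998 genes measured were, and a single member, Tgfb1, was 1.2-fold apart, where 29.5% of all genes were (11.6% higher in the knockout and 17.8% lower). A gene counted as measured with at least 1 FPKM (fragments per kilobase of transcript, normalised to sequencing depth) in at least 1 library, which all 10 members reached in both. The log2 ratio, knockout over wild type, was taken on FPKM + 1. It was above 0 for 6 members and below 0 for 4 (3 and 7 when the knockout was scaled to 8 reference genes), with a median of 0.03 beside −0.03 over all genes measured. Of the 10 ratios, 7 lay between the quartiles of all genes, −0.19 and 0.13.

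The level of each member, which FPKM scales for length, spanned from 3.23 FPKM for Tgfbr1 to 183.8 FPKM for Tgfb1 in the wild type. The order was the same in both libraries, with Tgfb1 highest, followed by Ski, Pmepa1, Tgfbr2, Skil, Smad3, Smad4, Smad7, Smad2 and Tgfbr1. Smad3 and Smad4 were neighbours that could not be ordered in the wild type, at 19.6 FPKM (95% exact Poisson interval 18.7 to 20.5) and 19.5 FPKM (18.5 to 20.6). Such intervals, and those of ratios below, rest on read numbers reconstructed from the deposited p-values or from transcript length, and they cover counting error only.

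**Figure D1:**
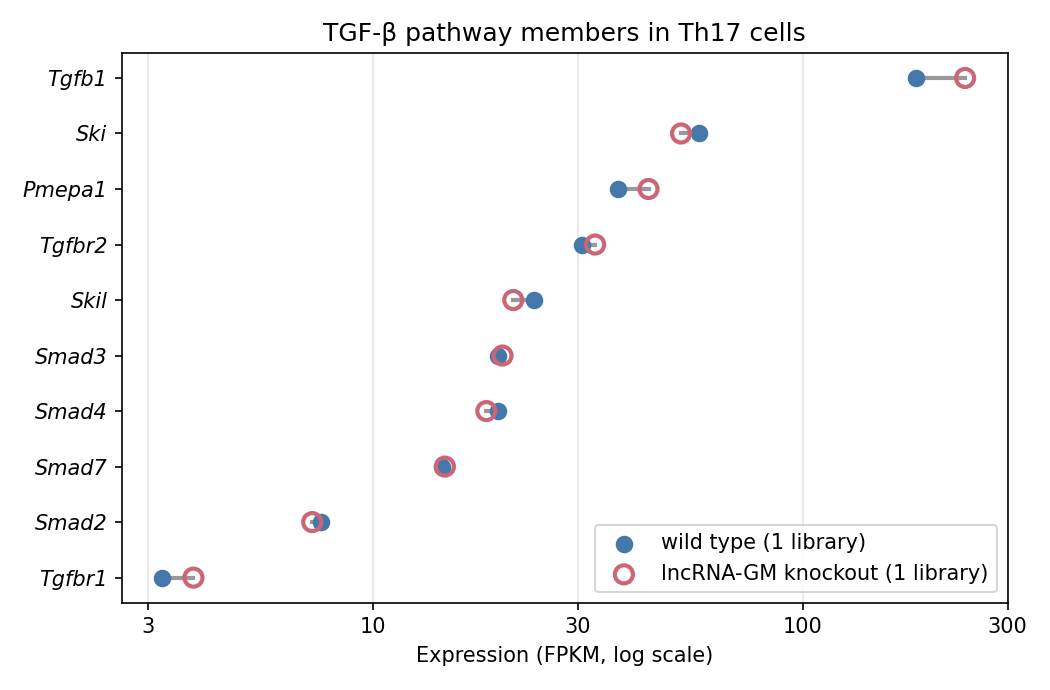
Expression of the 10 genes in FPKM on a log axis, 1 row per gene; filled points are the wild-type library and open points the knockout library, joined by a line. The pairs lie close together in every row, and the widest gaps are those of Tgfb1 (183.8 and 239.0 FPKM), Pmepa1 (37.1 and 43.8 FPKM) and Tgfbr1 (3.23 and 3.82 FPKM).

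Tgfb1 (gene ID 21803, chromosome 7 from 25687002 to 25705077 on GRCm38.p6) encodes TGF-β1, the main form made by T cells. It was at 183.8 FPKM in wild-type and 239.0 FPKM in knockout cells, 1.30-fold higher in the knockout library. The log2 ratio was 0.38, with a 95% exact (Clopper-Pearson) interval of the read ratio from 0.34 to 0.42 on about 7770 and 9942 reads. Of all genes measured, 17.6% had a ratio at least as far from 0. Cells other than T cells make TGF-β1 as well. The 6 macrophage and dendritic cell markers summed to 28.1 FPKM in wild-type and 64.3 FPKM in knockout cells, mostly from Cd74 and H2-Ab1, with Csf1r at 0.09 and 0.26 FPKM and Adgre1 at 0.06 and 0.08 FPKM. The 4 platelet markers summed to 3.05 and 0.94 FPKM. Of them, 3 (Pf4, Ppbp and Gp9) were listed at 0 in the knockout, from about 20, 9 and 1 reads in the wild type. The remaining marker, Itga2b, was slightly higher in the knockout, at 0.85 FPKM in wild-type and 0.94 FPKM in knockout cells. The part of these cells in the Tgfb1 value was not tested. In RNA from a whole culture, more cells of a type and more RNA per cell cannot be told apart.

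Tgfbr2 (gene ID 21813, chromosome 9 from 116087695 to 116175363) encodes the ligand-binding type II receptor. It was at 30.6 FPKM in wild-type and 32.9 FPKM in knockout cells, with a log2 ratio of 0.10 (interval 0.03 to 0.18). Tgfbr1 (gene ID 21812, chromosome 4 from 47353222 to 47414926) encodes the type I receptor kinase that phosphorylates the Smads. It was at 3.23 and 3.82 FPKM and had the lowest level of the 10 genes, above that of 16.1% of measured genes in the wild type. Its log2 ratio was 0.19, and its interval was the widest, from 0.04 to 0.45 on about 375 and 437 reads. Both receptor genes were thus slightly higher in the knockout library, although scaling to the reference genes turned the ratio of Tgfbr2 to −0.0042. The level of Tgfbr2 was 9.48 times that of Tgfbr1 in the wild type and 8.61 times in the knockout.

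Promoter sequences are shown for the ligand gene, which differed most, and for both receptor genes, whose ratios had the same sign. They are the 250 bases before the start site in RefSeq's GRCm38.p6 annotation, at chr7:25686752-25687001 (plus strand) for Tgfb1, chr9:116175364-116175613 (minus strand) for Tgfbr2 and chr4:47352972-47353221 (plus strand) for the upstream of 2 start sites of Tgfbr1. Each is written 5′ to 3′ on the strand of the gene, and capitals mark matches to any of 5 motifs on either strand.
Tgfb1: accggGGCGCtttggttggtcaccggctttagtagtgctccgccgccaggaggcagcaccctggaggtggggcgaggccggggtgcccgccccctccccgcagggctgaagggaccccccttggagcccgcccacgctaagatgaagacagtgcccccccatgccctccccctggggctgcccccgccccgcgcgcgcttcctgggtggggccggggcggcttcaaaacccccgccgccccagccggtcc
Tgfbr2: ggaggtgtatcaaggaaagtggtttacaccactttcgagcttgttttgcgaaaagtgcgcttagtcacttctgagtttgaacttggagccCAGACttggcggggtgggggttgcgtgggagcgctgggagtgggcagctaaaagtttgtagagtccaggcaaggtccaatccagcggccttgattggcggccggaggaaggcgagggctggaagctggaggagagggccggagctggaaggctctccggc
Tgfbr1: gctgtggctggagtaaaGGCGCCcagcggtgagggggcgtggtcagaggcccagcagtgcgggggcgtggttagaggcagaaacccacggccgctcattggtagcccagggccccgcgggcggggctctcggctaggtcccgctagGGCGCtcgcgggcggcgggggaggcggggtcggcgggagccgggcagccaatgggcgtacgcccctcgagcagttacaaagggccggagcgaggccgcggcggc
The motifs were CAGAC, part of the CAGA box bound by Smad3 and Smad4, the palindromic Smad element GTCTAGAC, the GC-rich Smad element GGCGC, the forkhead core TAAACA and the AP-1 site TGACTCA. Tgfb1 held GGCGC, starting 245 bases before the start site. Tgfbr2 held CAGAC, starting 160 bases before it. Tgfbr1 held GGCGC at 3 positions, 2 of them overlapping as a palindrome, and CAGAC stood before its downstream start site. Of the 32851 promoters in the table, 42.2% held CAGAC, 32.0% GGCGC, 12.03% TAAACA, 4.46% TGACTCA and 0.167% GTCTAGAC in windows of the same length. GTCTAGAC, TAAACA and TGACTCA had no match in the windows of the 5 members whose promoters were used, which were these 3, Ski and Smad3. Ski, which was lower in the knockout, held GGCGC at 7 positions in a window that was 87.6% G and C. Smad3 held no match to any of the 5 motifs. The windows of Tgfb1, Tgfbr1 and Tgfbr2 were 75.2%, 74.8% and 58.4% G and C, against a median of 52.4% over all promoters, and GC-rich windows hold more GGCGC by composition. These matches describe the letters and not binding.

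Smad3 (gene ID 17127, chromosome 9 from 63646766 to 63757994) and Smad2 (gene ID 17126, chromosome 18) encode the Smads that the type I receptor phosphorylates. Smad3 was at 19.6 FPKM in wild-type and 20.02 FPKM in knockout cells, with a log2 ratio of 0.03 (interval −0.06 to 0.12). Smad2 was at 7.55 and 7.22 FPKM, with a log2 ratio of −0.06 (interval −0.17 to 0.05). At the deposited scale neither differed beyond counting error, while scaling to the reference genes put the interval of Smad2 below 0, from −0.28 to −0.06. The level of Smad3 was 2.59 times that of Smad2 in the wild type and 2.77 times in the knockout, so Smad3 was the more abundant transcript of the pair in both libraries.

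Smad4 (gene ID 17128, chromosome 18) encodes the common partner that carries both into active complexes. It was at 19.5 FPKM in wild-type and 18.4 FPKM in knockout cells, with a log2 ratio of −0.08 (interval −0.20 to 0.03). The sum of Smad2, Smad3 and Smad4 was 46.7 FPKM in wild-type and 45.6 FPKM in knockout cells. For Smad3, Smad4 and Smad7 the deposited p-value at the FPKM ratio called for more reads than their longest annotated transcripts allow, so their reads were taken from transcript length. With those reads, the p of the authors' deposited table corresponds to log2 read ratios of 0.05 for Smad3, −0.18 for Smad4 and 0.03 for Smad7, which for Smad4 is further from 0 than the FPKM ratio. The deposited p of Smad4 was 0.0019 (FDR 0.0074), and the interval of its implied read ratio, −0.30 to −0.067, did not hold 0. Whether Smad4 differed beyond counting error thus depended on how its reads were taken.

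Smad7 (gene ID 17131, chromosome 18) encodes the inhibitory Smad that blocks the type I receptor, and it is a classical immediate target of TGF-β. It was at 14.5 FPKM in wild-type and 14.7 FPKM in knockout cells, with a log2 ratio of 0.02 (interval −0.09 to 0.14), the smallest difference of the 10 genes. Pmepa1 (gene ID 65112, chromosome 2 from 173224458 to 173276731) encodes a membrane protein that sequesters receptor-activated Smads and is likewise induced by TGF-β. It was at 37.1 FPKM in wild-type and 43.8 FPKM in knockout cells, with a log2 ratio of 0.23 (interval 0.17 to 0.31) on about 3478 and 4040 reads. Pmepa1 was thus 1.18-fold higher in the knockout library, and the interval of Smad7 held 0. The level of Pmepa1 was 2.57 times that of Smad7 in the wild type and 2.98 times in the knockout.

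Ski (gene ID 20481, chromosome 4 from 155154075 to 155222535) and Skil (gene ID 20482, chromosome 3 from 31095058 to 31122923) encode related corepressors that bind Smad complexes on DNA. Ski was at 57.4 FPKM in wild-type and 52.1 FPKM in knockout cells, with a log2 ratio of −0.14 (interval −0.20 to −0.08). Skil was at 23.7 and 21.2 FPKM, with a log2 ratio of −0.16 (interval −0.24 to −0.09). Both corepressor genes were thus slightly lower in the knockout library, by 1.10-fold and 1.11-fold, and the level of Ski was 2.42 times that of Skil in the wild type and 2.46 times in the knockout. The 4 inhibitory genes summed to 132.7 FPKM in wild-type and 131.8 FPKM in knockout cells, so the higher Pmepa1 and the lower Ski and Skil nearly balanced in the sum.

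At the deposited scale, counting error left 4 members above equality (Tgfb1, Pmepa1, Tgfbr1 and Tgfbr2), 2 below it (Ski and Skil) and 4 whose intervals held 0 (all 3 signalling Smads and Smad7, with the reads of Smad4 taken from transcript length). The share of all measured genes whose intervals leave out 0 is not given here. These counts therefore have no background and do not set the members apart from other genes. The FDR of the authors' deposited table was at most 0.001 for Tgfb1, Pmepa1, Ski and Skil, 4 of 10, beside 30.5% of all genes measured. The deposited p-values of these 4 were 6.26e-68, 6.51e-13, 6.85e-07 and 2.63e-05. That p compares 1 library with 1 library and holds no spread between cultures. For the 7 members whose reads were solved from the deposited p, the interval follows from it and is no separate evidence. Scaling the knockout library to 8 reference genes lowered the log2 ratios of the members by 0.085 to 0.11, and those of Tgfbr2, Smad3 and Smad7 then fell below 0. The intervals, shifted alike, then left 2 members above 0 (Tgfb1 and Pmepa1), 4 below it (Ski, Skil, Smad2 and Smad4) and 4 that held 0 (both receptors, Smad3 and Smad7).

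**Figure D2:**
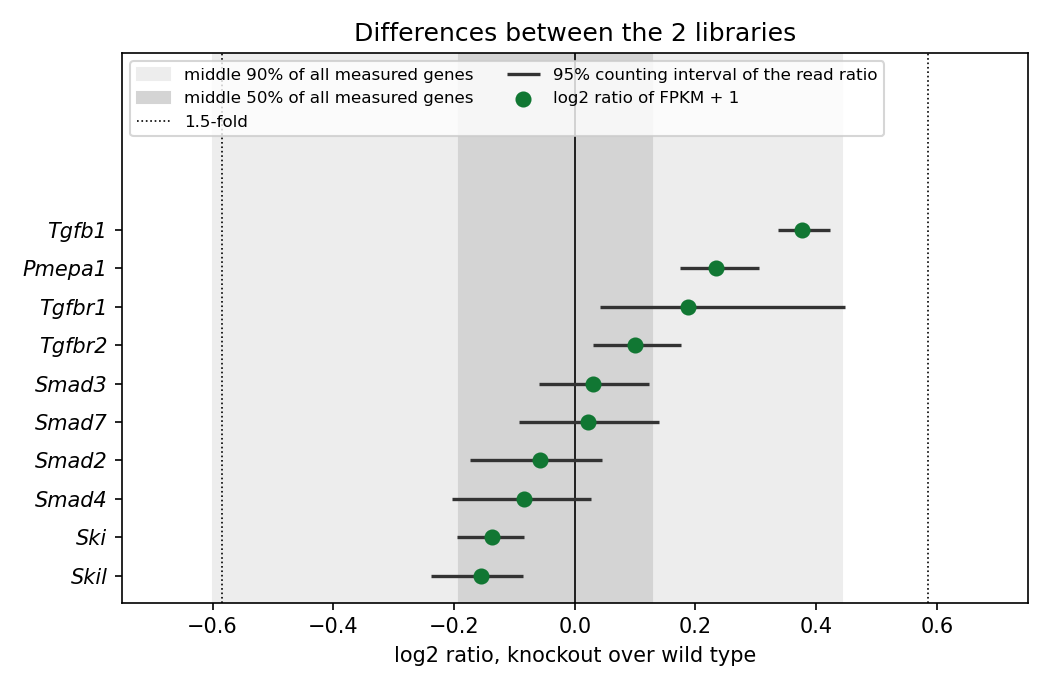
Log2 ratio, knockout over wild type, for each of the 10 genes (green points, FPKM + 1) with the 95% counting interval of the read ratio (lines); grey bands hold the middle 50% and 90% of all 10998 genes measured, and dotted lines mark 1.5-fold. All 10 points lie within the middle 90%, from −0.16 for Skil to 0.38 for Tgfb1, and 4 intervals cross 0 at the deposited scale.

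The labelled cell type was checked against its markers. Cd4 was at 174.4 and 212.6 FPKM in the wild type and the knockout, and all 4 T cell markers lay within 1.5-fold. All 4 Th17 markers reported here were measured in both libraries. Of these, 3 were lower in the knockout by 1.5-fold or more, where 5.19% of all genes were, with the signature cytokine gene Il17a at 392.4 and 178.5 FPKM. The remaining marker, Ccr6, ran the other way, at 3.35 and 4.85 FPKM (log2 ratio 0.43). The 5 markers of CD8 T and natural killer (NK) cells summed to 416.4 FPKM in wild-type and 216.4 FPKM in knockout cells although the labels name CD4+ cells, and 4 B cell markers summed to 4.31 and 7.37 FPKM.

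In the wider signalling machinery, the counts of genes 1.5-fold apart were too small to set against the shares over all genes. At 1.2-fold, differences in either direction together were about as frequent as over all genes. A larger share was higher in the knockout and a smaller share lower, which was not tested. Of 48 measured genes in 6 lists (ligands and their activation, receptors, other Smads, modulators, nuclear partners and the non-Smad branch), 1 was at least 1.5-fold higher in the knockout, where 2.71% of all genes were, and 1 at least 1.5-fold lower, where 5.19% were. Their median log2 ratio was 0.06. At 1.2-fold, 11 of the 48 (22.9%) were higher in the knockout and 3 (6.25%) lower, 29.2% together. Over all genes 11.6% were higher and 17.8% lower, 29.5% together. With the knockout scaled to the reference genes, 9 were higher and 7 lower, beside 7.25% higher and 27.6% lower over all genes. With a pseudocount of 5 FPKM, 4 (8.33%) were higher and 2 (4.17%) lower, beside 6.67% and 10.1% over all genes. Among the 11 were the activin and related receptor genes Acvr1b and Acvrl1, the co-receptor gene Eng, and Traf6, which encodes a ubiquitin ligase of the non-Smad branch and was at 22.9 FPKM in wild-type and 32.5 FPKM in knockout cells. Past 1.5-fold, the higher gene was Lrrc32, which encodes GARP, the protein that holds latent TGF-β on the surface of regulatory T cells. It was at 7.43 FPKM in wild-type and 22.5 FPKM in knockout cells, with a log2 ratio of 1.48 and a read-ratio interval of 1.46 to 1.74. The lower gene was Dab2, an endocytic adaptor that links receptors to Smads, at 3.45 and 1.18 FPKM, with a log2 ratio of −1.03 and a read-ratio interval of −1.89 to −1.23, which lacks the added 1 FPKM that shrinks the ratio of low genes.

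Among 6 measured genes of ligands and activation, Furin, the protease that cleaves the TGF-β precursor, was the most abundant, at 157.4 FPKM in wild-type and 182.9 FPKM in knockout cells. Tgfb3, a further ligand gene that was named after its value was seen, was at 4.01 and 5.46 FPKM, so Tgfb1 exceeded it 45.8 times in the wild type and 43.8 times in the knockout. Tgfb2 stayed under 0.1 FPKM in both. Of 8 measured receptors and co-receptors none was 1.5-fold apart, and the most abundant were the co-receptor gene Tgfbr3, at 10.7 and 8.79 FPKM, and the activin receptor gene Acvr1b, at 5.27 and 7.31 FPKM. Smad5 and Smad1, which carry the signals of bone morphogenetic proteins, had log2 ratios of −0.08 and 0.09.

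Of 15 measured modulators, Fkbp1a had the highest level and the highest ratio, at 392.4 FPKM in wild-type and 565.4 FPKM in knockout cells (log2 ratio 0.53). Its product FKBP12 binds the type I receptor and guards against activation without ligand. Strap, which encodes a Smad7-binding adaptor, had a log2 ratio of −0.14. Among 9 measured nuclear partners, Runx3 and the deacetylase gene Hdac1 had log2 ratios of 0.07 and 0.03. Of the 7 genes of the non-Smad branch, the GTPase gene Rhoa and the kinase adaptor gene Tab2 had log2 ratios of −0.04 and −0.02. No gene of these last 2 lists was 1.5-fold apart.

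Target genes of the pathway were more often apart by count, a difference between lists that was not tested. The lists were chosen with earlier results of these data known. Their counts, here and for the lowered genes below, are therefore no independent support for a change of TGF-β targets. Of 10 measured genes known to be raised or lowered by TGF-β, 6 were lower in the knockout by 1.5-fold or more, 1 was higher by that much and 3 differed less. Over all genes measured, 5.19% were lower and 2.71% higher by that much. The median log2 ratio was −0.14 for the 4 genes known to be raised and −1.63 for the 6 known to be lowered, beside −0.03 over all genes. Among 4 genes known to be raised, Itgae, which encodes the integrin CD103, was at 12.3 FPKM in wild-type and 6.63 FPKM in knockout cells. Foxp3, the regulatory T cell factor, ran the other way, at 6.08 and 15.6 FPKM, and the cell-cycle inhibitor gene Cdkn1a was at 208.4 and 221.4 FPKM. Id3, the remaining gene of the 4, was at 10.1 and 7.62 FPKM. The genes known to be raised by TGF-β thus did not share a direction.

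Among 6 measured genes known to be lowered by TGF-β in T cells, 5 were lower in the knockout by 1.5-fold or more, where 5.19% of all genes were. None was higher by that much, where 2.71% of all genes were. Under the 1 FPKM minimum, Il2 was higher in the knockout, at 0.06 and 0.56 FPKM on about 1 and 10 reads. Eomes, also under it, was lower, at 0.70 and 0.43 FPKM. Ifng, the Th1 cytokine gene, was at 26.8 FPKM in wild-type and 5.51 FPKM in knockout cells, and Tbx21, which encodes the Th1 factor T-bet, was at 9.34 and 5.14 FPKM. Gzma, Gzmb and Prf1, which encode granzymes and perforin, had log2 ratios of −1.81, −1.53 and −1.72. Gata3 had a log2 ratio of 0.07. The CD8 T and NK markers moved with these genes, with log2 ratios of −0.80 for Cd8a, −0.75 for Cd8b1, −1.37 for Klrd1 and −2.19 for Klrk1, while Ncr1 was at 0.25 and 0.07 FPKM. Their part in the values of the effector genes was not tested. Il17a, Ifng and the granzyme genes answer to many signals beside TGF-β, and RNA levels do not measure receptor or Smad activity.

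**Figure D3:**
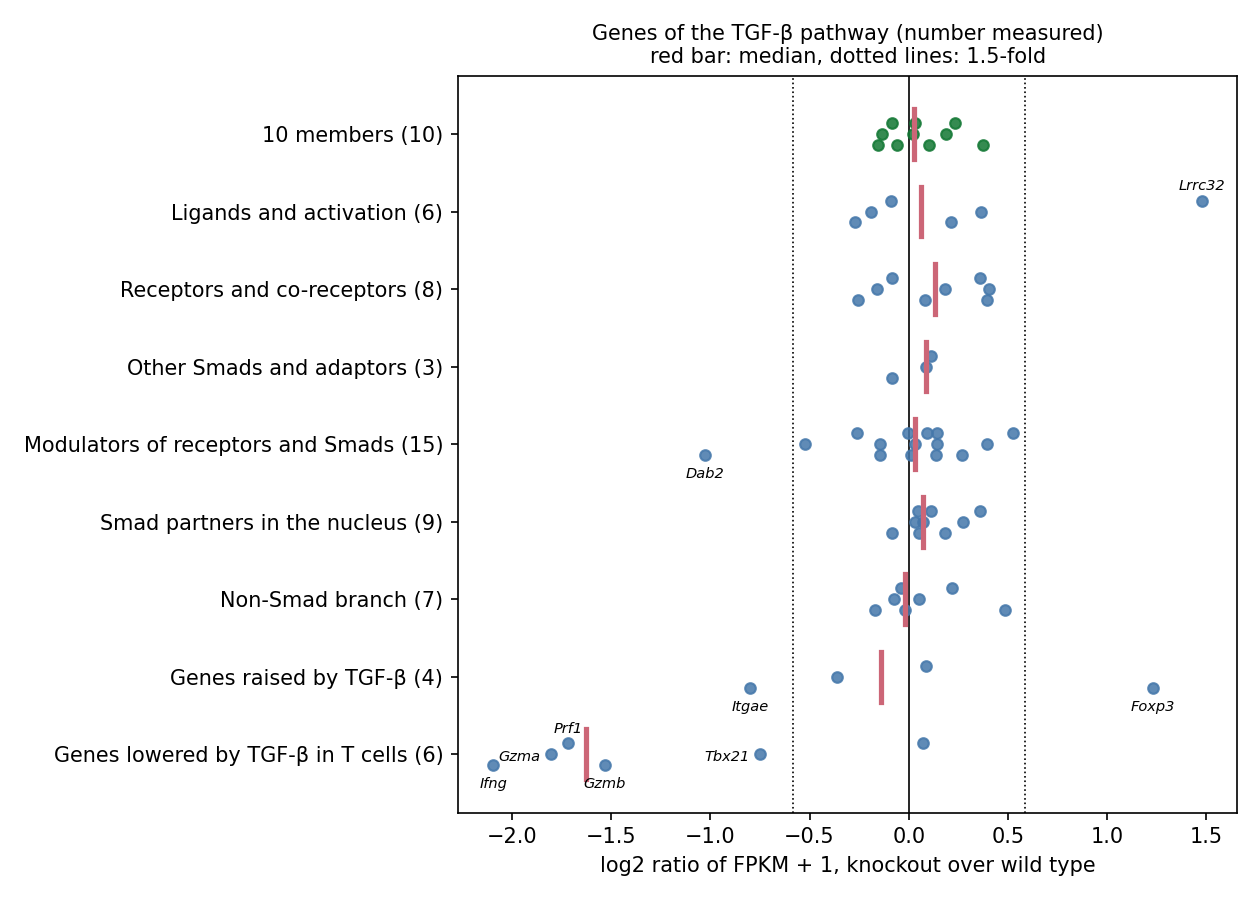
Knockout over wild-type log2 ratio of FPKM + 1 for each measured gene of the 10 members (green) and of 8 lists of other pathway genes (blue), with the number measured in parentheses, list medians as red bars and 1.5-fold as dotted lines. The 10 members and most signalling genes lie between the dotted lines, Lrrc32 and Dab2 lie outside them, and 7 of the 10 target genes lie outside them, all but Foxp3 on the lower side.

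No near-identical transcript of another gene (at least 95% identity over at least 50% of the shorter) and no exon of another gene overlapping theirs was found for any of the 10 members in GENCODE release M21. A further 31 genes were searched alike, while other genes named here, such as the cell type markers, were not searched. Among those searched, Hdac1, Rhoa and Fkbp1a have processed pseudogenes of at least 95% identity, and Cdkn1a shares sequence of that identity with a short non-coding RNA gene. Exons of Foxp3, Cdkn1a, Rhoa, Furin, Tgfb3, Dab2, Eng, Acvrl1 and Gata3 overlap genes on the opposite strand, whose reads cannot be told apart without known strandedness. Exons of Foxp3 (with the non-coding gene Flicr), Ifng, Gata3, Smad5 and Tgfbr3 overlap genes on the same strand, whose reads strandedness would not separate, so the values of these genes are uncertain to that extent.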

How the data were processed

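The data were 1 wild-type and 1 lncRNA-GM knockout RNA-seq library of Th17 cells, for which, per the labels' protocols, total RNA was extracted with TRIzol and run on the Illumina HiSeq platform. The submitters' processing notes name Bowtie2, RSEM and GRCm38.p6. Filters, versions and strandedness are not given in the sources used here. Both deposited expression columns were taken to be FPKM: the header names no unit, and their sums of 517664 and 514343 are not the fixed total of TPM. The authors' deposited log2 ratio was recomputed to within rounding with zeros replaced by 0.01. No source used here names the test behind the authors' deposited p-value. Their deposited FDR was treated as a score, since it exceeds 1 for 443 genes.

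Log2 ratios were computed on FPKM + 1 for genes reaching 1 FPKM in either library. Reads were solved from the deposited p-value as a Poisson comparison of 2 libraries with 50.4% of reads in the wild type, where rounding moved them by at most 20% and the implied length lay between 0.5 times the shortest and 1.2 times the longest annotated transcript (7 members). For the other 3 they came from transcript length. Depth, the median over 180 genes with 1 transcript of at least 1500 bases, came to 19.5 M fragments for the wild-type library (quartiles 18.5 and 19.7) and 19.1 M for the knockout library. Without molecular identifiers reads may be copies of one molecule, and intervals cover counting error only.

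The members and lists were chosen with earlier results of these data known. Named genes were the 10 members, pathway genes 1.5-fold apart and the 2 most abundant of each list, and others were named after their values were seen. A member's promoter was used where the RefSeq table held one outside chromosome 18 (5 of 10). Ltbp2 was not found in the table, and 2 genes of the lists are not reported here. Copies were searched with BLAST 2.17.0. The steps were tested on simulated data with planted changes larger than any member showed. Reads were solved there only for the changed genes, from p-values made with the same Poisson formula. How well reads are solved at the members' smaller differences was therefore not tested. Scripts ran on scipy 1.17.1, pandas 2.3.3, numpy 2.4.6 and matplotlib 3.10.9 under Python 3.11.15. Alternatives changed the pseudocount, the minimum, the scaling and the source of the ratio.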

Additional observations from a re-analysis of the deposited data

How the results depend on the processing

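With 1 library per genotype no library could be left out. No paired analysis was possible because each genotype has a single library. The count of members 1.5-fold apart was 0 under all 10 alternatives, which were other pseudocounts (0.1 and 5), other minimums (none and 5 FPKM), 3 scalings, recovered reads, the authors' deposited log2 ratio and, added after seeing the data, the read ratio implied by the deposited p. The count of members 1.2-fold apart was 2 when the median of all genes was set to 0, where Pmepa1 joined Tgfb1, and 1 under the other alternatives. Scaling to 8 reference genes moved the median of the members to −0.075 and that of the pathway genes to −0.052, and it turned the log2 ratio of Tgfbr2 to −0.0042. Tgfb1 ran from 0.27 to 0.41, Pmepa1 from 0.13 to 0.26, Ski from −0.24 to −0.11 and Skil from −0.26 to −0.13 over the alternatives, each with its sign kept. The count of pathway genes 1.5-fold apart was 9 of 58 measured at the main settings, where 7.90% of all genes were, and ran from 6 to 10. Of the 9, 1 higher and 1 lower gene were among the 48 signalling genes. The others, 1 higher and 6 lower, were among the 10 target genes. Added after seeing the data, reference scaling of the counting intervals moved the members above 0 from 4 to 2 and those below 0 from 2 to 4, and the reads implied by the deposited p put Smad4 below 0 as well, making 3. The intervals of Smad2, Smad3, Smad4 and Smad7 reached 0.091 to 0.12 to either side on the log2 scale, which limits what this depth can show, and the spread between cultures is unknown.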

Other observations

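The pathway annotation (KEGG) in the authors' deposited table, a list that was added after the data were seen, placed 78 genes under TGF-β signalling, among them 7 of the 10 members; Ski, Skil and Pmepa1 were not among them. It placed 6 members, all but Smad7 of those 7, under both Th17 differentiation and FoxO signalling. Of the other 71 genes, 42 were measured, with a median log2 ratio of 0.05. Of the 42, 2 were higher in the knockout by 1.5-fold or more, where 2.71% of all genes were, and 2 were lower by that much, where 5.19% were. Counts this small do not set the list apart from all genes. Tnf, the inflammatory cytokine gene, was at 40.9 FPKM in wild-type and 75.1 FPKM in knockout cells. Id1, an inhibitor of helix-loop-helix factors, was at 0.89 and 1.95 FPKM on about 15 and 33 reads. Its relative Id2 was at 142 and 90.2 FPKM, and Ifng was the other lower gene.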
